A study of Mus musculus with 2 samples.

Results

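Signals of 44 genes that mark macrophages, granulocytes and leukocytes in general were read on arrays of gonad-mesonephros complexes from XX Gata4ki/ki mouse embryos and from XX wild type embryos, both at E12.5 (embryonic day). The complex is the embryonic gonad with the mesonephros, the transient kidney, still attached. Gata4ki is a knock-in allele of Gata4, a transcription factor gene of the somatic gonad, that weakens the contact between GATA4 and its FOG cofactors. Each group was 1 array hybridised with RNA pooled from 6 pairs of complexes, and the strain, C57Bl/6, was stated for the mutant alone. The spread between embryos is therefore unknown, no test between the groups was possible, and every difference below describes these 2 arrays. The genes were chosen by name because leukocyte genes had been seen to be higher on the mutant array, so their overall direction is the reason for the choice and not a finding.

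Of the 44 genes, 43 had at least 1 probe set annotated with that single symbol, 67 probe sets in all of 45101 on the array, and Cebpe had none. A floor was set at the median of both arrays, a signal of 24.0, and lower values were set to it before ratios were taken. Of the 43 genes, 38 exceeded the floor on at least 1 array and are called measured, out of 12300 measured genes among 18193 represented. On both arrays 33 exceeded it. The other 5 of the 38 give a bound, written "at least", since 1 array was at or under the floor. Itgam, Cd163, Timd4, Elane and Ctsg were at or under the floor on both. A gene with several probe sets was read from the one whose log2 signal, averaged over the arrays, was highest, and log2 ratios are mutant minus wild type. A probe set's signal depends on its own probes, so levels are compared between the arrays and never between genes.

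Macrophages reach the embryonic gonad from early blood-forming sites such as the yolk sac, depend on the receptor CSF1R, and clear dying cells. Granulocytes arise in the fetal liver from progenitors that fill their granules in order, with primary granule enzymes such as myeloperoxidase made first and proteins such as lactoferrin made later. PU.1 and the C/EBP factors are the main transcription factors of both lineages. In pooled tissue, more cells of a type and more RNA per cell cannot be told apart.

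Most of the 38 measured genes had a somewhat higher signal on the mutant array, and 2 granule genes were far higher. Their median log2 ratio was 0.33, with 32 above 0 and 6 below, against a median of 0.01 over all measured genes, of which 51.4% were above 0. Prg2 and Mpo passed 2-fold higher, a level that 0.846% of all measured genes passed. None of the 38 was 2-fold lower, against 0.537% of all. Another 7 lay between 1.5-fold and 2-fold higher, namely Ptprc, Cd52, Csf1r, Mrc1, Folr2, Ms4a7 and Prtn3. That makes 9 at 1.5-fold or more, against 3.54% of all measured genes, and none was 1.5-fold lower, against 3.11%. Mpo, 3.40-fold higher, was the nearest gene inside the 2-fold line and Ptprc, 1.89-fold higher, the nearest outside it. These shares repeat the choice of genes and support nothing by themselves.

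**Figure D1:**
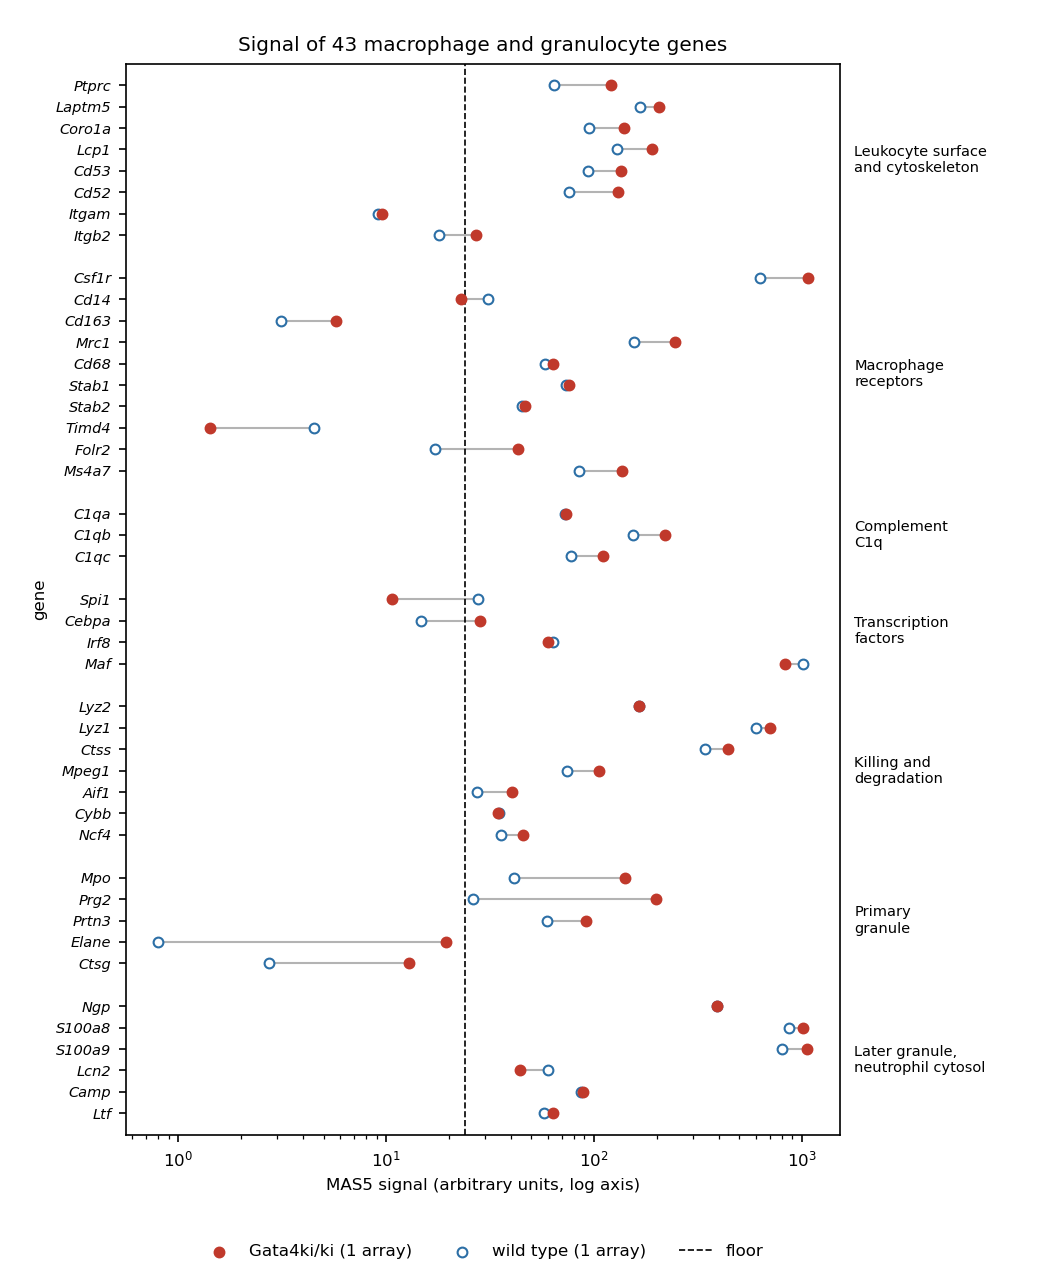
MAS5 signal (log axis) of the 43 genes with a probe set, 1 row per gene in groups by role, with a filled point for the Gata4ki/ki array and an open point for the wild type array; the dashed line is the floor of 24.0. The widest gaps above the floor are those of Prg2 (198 against 26.3) and Mpo (140.4 against 41.3), while Ngp and Lyz2 have overlying points.

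Since genes of the 2 lineages had high ratios side by side, the promoter letters of 4 of them are shown. Mpo, Ptprc, Folr2 and Ms4a7 had the largest log2 ratios among genes that met a planned choice of chromosomes and had a window matched here. Prg2, Cd52 and Csf1r had larger ratios than Ms4a7 and are named only. The windows run from 250 bases before to 50 after the start site, from RefSeq on GRCm38.p6, 5′ to 3′ on the gene's strand. Capitals mark GAGGAA, the core that PU.1 binds, GGAAGT, a general ETS motif, and TTGCNNAA, a C/EBP motif, on either strand.
Mpo, chr11:87793534-87793833, plus strand: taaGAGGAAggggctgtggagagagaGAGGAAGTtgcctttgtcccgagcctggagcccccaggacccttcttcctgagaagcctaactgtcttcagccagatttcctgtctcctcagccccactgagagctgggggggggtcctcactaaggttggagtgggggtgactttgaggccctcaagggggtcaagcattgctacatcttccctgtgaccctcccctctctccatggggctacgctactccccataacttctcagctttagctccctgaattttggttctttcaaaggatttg
Ptprc, chr1:138175256-138175555, minus strand: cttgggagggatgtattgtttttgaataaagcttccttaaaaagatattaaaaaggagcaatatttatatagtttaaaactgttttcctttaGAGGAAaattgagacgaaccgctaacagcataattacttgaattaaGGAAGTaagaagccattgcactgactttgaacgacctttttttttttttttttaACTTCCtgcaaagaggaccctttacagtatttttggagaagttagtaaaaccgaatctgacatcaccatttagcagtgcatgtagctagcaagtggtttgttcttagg
Folr2, chr7:101857141-101857440, minus strand: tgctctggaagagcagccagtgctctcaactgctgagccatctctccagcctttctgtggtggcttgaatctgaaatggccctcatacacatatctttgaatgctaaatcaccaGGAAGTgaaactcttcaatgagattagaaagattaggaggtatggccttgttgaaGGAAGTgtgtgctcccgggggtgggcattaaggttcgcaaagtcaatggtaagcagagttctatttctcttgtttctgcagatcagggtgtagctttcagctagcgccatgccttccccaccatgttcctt
Ms4a7, chr19:11336097-11336396, minus strand: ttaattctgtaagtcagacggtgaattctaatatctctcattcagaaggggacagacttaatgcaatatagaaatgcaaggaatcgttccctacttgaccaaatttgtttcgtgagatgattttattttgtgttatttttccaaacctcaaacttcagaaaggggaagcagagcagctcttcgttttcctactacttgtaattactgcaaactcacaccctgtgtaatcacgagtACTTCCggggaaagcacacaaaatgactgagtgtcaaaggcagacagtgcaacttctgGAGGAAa

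The 4 windows shown, each the first listed for its gene, held an ETS or PU.1 match and none held the C/EBP letters. Ptprc, Folr2 and Ms4a7 have another window in the table, and those of Folr2 and Ms4a7 held no match to any of the 3 motifs. In the Mpo window GAGGAA began at positions -247 and -224, counted from the start site, and the second match overlapped a GGAAGT at -222. The Ptprc window held GAGGAA at -158 and GGAAGT at -112, with a further GGAAGT on the opposite strand at -58. Folr2 held GGAAGT at -136 and -81 and no GAGGAA. Ms4a7 held GGAAGT on the opposite strand at -15 and GAGGAA at 44. Over the whole set, 34 of the genes matched the promoter table, with 40 windows. Of these windows 20 held GAGGAA, or 50%, against 28.3% of all 32851 windows in the table. GGAAGT stood in 21, or 52.5%, against 23.8%, and TTGCNNAA in 6, or 15%, against 10.8%. Some windows held both GAGGAA and GGAAGT, overlapping as in Mpo or apart as in Ptprc and Ms4a7, so these counts are not separate. Several genes have more than 1 window. A match is a description of the letters and not a binding site.

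All 7 measured genes of the leukocyte surface and cytoskeleton had a higher signal on the mutant array, with a median log2 ratio of 0.56. Ptprc, the phosphatase CD45 carried by nearly all white blood cells, gave 121 in the mutant and 64.0 in wild type, a log2 ratio of 0.92. Cd52, a small surface glycoprotein of leukocytes, gave 130.2 in the mutant and 76.0 in wild type, a log2 ratio of 0.78. Both arrays were well over the floor for these genes, and the mutant array was the higher. Coro1a, an actin-binding coronin of blood cells, had signals of 139.9 in the mutant and 94.7 in wild type. Lcp1, the actin bundler L-plastin, had 189.8 in the mutant and 129 in wild type, and the tetraspanin gene Cd53 had 135 in the mutant and 93.8 in wild type. These 3 genes had log2 ratios of 0.56, 0.56 and 0.52, so they lay within a narrow range. Laptm5, a lysosomal membrane protein of blood cells, gave 206 in the mutant and 166 in wild type, a log2 ratio of 0.31. Its other measured probe sets had ratios of both signs. The 2 leukocyte integrin genes were dim. Itgb2, the shared beta chain, gave 27.0 in the mutant and 17.97 in wild type and was at least 1.12-fold higher. Itgam, the alpha chain CD11b, gave 9.53 in the mutant and 9.11 in wild type, both under the floor.

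Among macrophage receptors, 4 genes were more than 1.5-fold higher in the mutant and 3 were nearly equal on both arrays. Csf1r, the receptor that macrophages need to survive, gave 1066 in the mutant and 626 in wild type. This is a log2 ratio of 0.77, and its other probe sets gave 0.59 and 0.40. Mrc1, the mannose receptor CD206, gave 245 in the mutant and 156 in wild type, a log2 ratio of 0.65. Ms4a7, a membrane protein of tissue macrophages, gave 136 in the mutant and 85.0 in wild type, a log2 ratio of 0.68. Folr2, a folate receptor found on resident macrophages, gave 43.1 in the mutant and 17.2 in wild type and was at least 1.79-fold higher. The mutant array was the higher for all 4 genes.

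Cd68, Stab1 and Stab2 had ratios near 0. Cd68, a lysosomal glycoprotein, gave 63.7 in the mutant and 58.1 in wild type, a log2 ratio of 0.13. Stab1 and Stab2 encode the stabilins, which also occur on sinusoidal endothelium. Stab1 gave 76.1 in the mutant and 73.2 in wild type, and Stab2 gave 46.5 in the mutant and 44.9 in wild type, log2 ratios of 0.06 and 0.05. Cd14, the coreceptor for bacterial lipopolysaccharide, was the one receptor with a lower value, at 22.8 in the mutant and 30.8 in wild type, or at least 1.28-fold lower. Cd163, the haemoglobin scavenger, and Timd4, a receptor for dying cells, were under the floor on both arrays. Cd163 gave 5.71 in the mutant and 3.10 in wild type, and Timd4 gave 1.42 in the mutant and 4.48 in wild type. The group median was 0.39 over 8 measured genes. The endothelial list had a median of -0.19 on the same arrays, with 13 of 17 genes below 0, including Lyve1 (31.2 in the mutant, 50.1 in wild type) and Sox17 (291 in the mutant, 461 in wild type). Its summed signal was 3434 in the mutant and 3956 in wild type. What part endothelium has in the values of Stab1, Stab2 and Mrc1 was not tested.

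**Figure D2:**
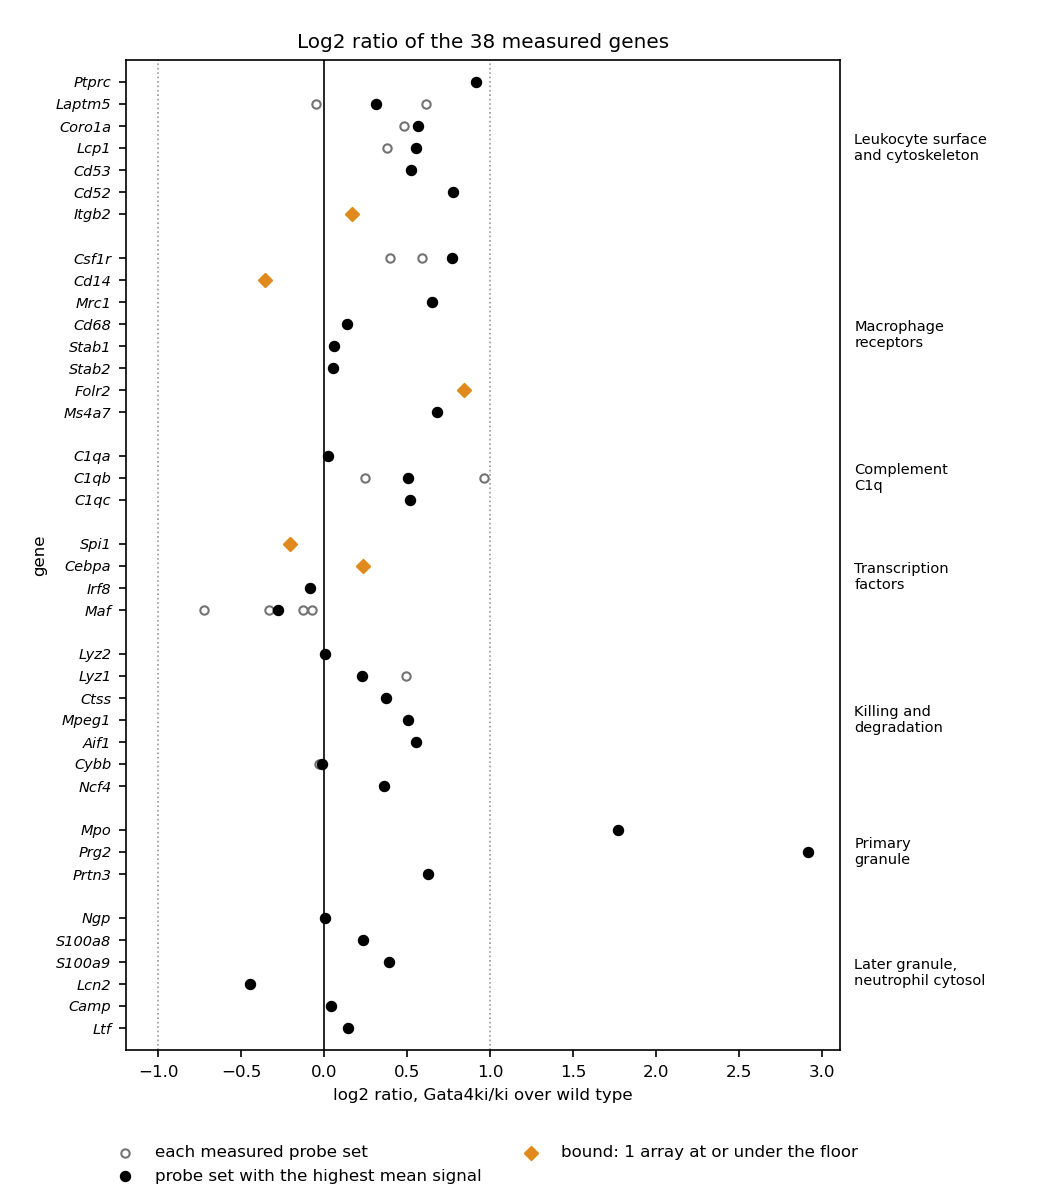
Log2 ratio of mutant over wild type for the 38 measured genes, by role; filled points are the probe set used for the gene, open points its other measured probe sets and diamonds bounds, and dotted lines mark 2-fold. Only Prg2 (2.91) and Mpo (1.77) pass the dotted line, and every Maf point lies below 0.

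The 3 chains of complement C1q, a soluble pattern recognition protein made largely by macrophages, did not have the same ratio. C1qb gave 219 in the mutant and 154 in wild type, a log2 ratio of 0.51, and its other probe sets gave 0.24 and 0.96. C1qc gave 110.2 in the mutant and 77.1 in wild type, also a log2 ratio of 0.51. C1qa gave 73.4 in the mutant and 72.3 in wild type, a log2 ratio of 0.02. The genes lie side by side on chromosome 4 in GRCm38.p6, with C1qc between the other two. The spread among the 3 C1qb probe sets was wider than the gap between C1qa and C1qc, so the order of the chains is not settled by these values.

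Of the 4 measured transcription factors of the myeloid lineages, Irf8 and Maf were above the floor on both arrays and had ratios below 0, and Spi1 and Cebpa gave bounds. Spi1, which encodes PU.1, gave 10.6 in the mutant and 27.7 in wild type, or at least 1.15-fold lower, and both values lie near or under the floor. Cebpa, the factor that starts granulocyte development, gave 28.3 in the mutant and 14.7 in wild type and was at least 1.18-fold higher. Both are too dim here for a direction to be read. Irf8, which steers progenitors towards monocytes, gave 59.8 in the mutant and 63.5 in wild type, a log2 ratio of -0.09. Maf, a factor of resident macrophages that is also expressed by interstitial cells of the mouse fetal gonad, gave 832 in the mutant and 1011 in wild type, a log2 ratio of -0.28. All 5 measured Maf probe sets had ratios below 0, the lowest being -0.73.

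Genes for killing and degradation lay between no difference and 1.5-fold. Ctss, the lysosomal protease cathepsin S, gave 442 in the mutant and 342 in wild type, a log2 ratio of 0.37. Mpeg1, the pore-forming perforin-2 of phagocytes, gave 105.9 in the mutant and 74.6 in wild type, a log2 ratio of 0.51. Aif1, the calcium-binding protein IBA1, gave 40.2 in the mutant and 27.4 in wild type, a log2 ratio of 0.55 close to the floor. Of the 2 genes of the phagocyte oxidase, Ncf4 gave 45.5 in the mutant and 35.6 in wild type, while Cybb, its catalytic subunit, gave 34.7 in the mutant and 35.1 in wild type. Their log2 ratios were 0.36 and -0.02.

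The 2 lysozyme genes, neighbours on chromosome 10, gave unequal answers. Lyz2, the lysozyme of macrophages and granulocytes, gave 165 on both arrays (164.6 in the mutant and 164.5 in wild type). Lyz1 gave 706 in the mutant and 604 in wild type on its probe set with the highest signal, a log2 ratio of 0.22, and 139.8 in the mutant and 99.5 in wild type on another one, a log2 ratio of 0.49. Both of these Lyz1 probe sets carry the suffix that marks probes shared with other transcripts. The one Lyz1 probe set without it gave 1.77 in the mutant and 0.66 in wild type, under the floor on both. Near-identical copies cannot be told apart by shared probes, so the Lyz1 values are uncertain as to gene.

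Among primary granule genes and Prg2, every measured gene had a higher signal on the mutant array. Prg2, the eosinophil granule major basic protein, had the largest ratio of the set. It gave 198 in the mutant and 26.3 in wild type, 7.53-fold higher or a log2 ratio of 2.91, with the wild type array barely over the floor. The log2 ratio was 2.03 with the floor at the 60th percentile and 2.14 with a pseudocount in place of the floor. Mpo, the myeloperoxidase of primary granules, gave 140.4 in the mutant and 41.3 in wild type, 3.40-fold higher or a log2 ratio of 1.77. Prtn3, the serine protease proteinase 3, gave 91.7 in the mutant and 59.5 in wild type, a log2 ratio of 0.62. Each of these 3 genes was read by a single probe set. Elane, neutrophil elastase and the neighbour of Prtn3 on chromosome 10, gave 19.4 in the mutant and 0.80 in wild type. Ctsg, cathepsin G, gave 12.8 in the mutant and 2.73 in wild type. Both were higher in the mutant but under the floor on both arrays, so no fold is given.

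Of the proteins made later in granulocyte development, Ngp, Camp and Ltf were close on both arrays. Ngp, neutrophilic granule protein, gave 389.96 in the mutant and 389.46 in wild type. Camp, the precursor of the cathelicidin peptide, gave 89.0 in the mutant and 86.5 in wild type. Ltf, the iron-binding lactoferrin, gave 63.6 in the mutant and 57.7 in wild type. The log2 ratios of these 3 genes were between 0.00 and 0.14. The calprotectin chains of the neutrophil cytosol were somewhat higher in the mutant. S100a8 gave 1013 in the mutant and 863 in wild type, and S100a9, its partner and neighbour on chromosome 3, gave 1054 in the mutant and 803 in wild type, log2 ratios of 0.23 and 0.39. Lcn2, the iron-sequestering lipocalin 2, was lower, at 44.2 in the mutant and 60.4 in wild type, with a log2 ratio of -0.45, the lowest of the 38. The 6 later genes had a median of 0.09, and Prg2, Mpo and Prtn3 had one of 1.77. Without a spread between samples this gap was not tested.

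Other eosinophil genes and placental genes were read beside Prg2. Epx, eosinophil peroxidase, gave 30.7 in the mutant and 31.2 in wild type, and Prg3, the Prg2 paralogue, was under the floor on both arrays at 4.61 in the mutant and 1.72 in wild type. PRG2 is also abundant in the human placenta. Of 8 trophoblast genes picked after their values had been seen, 4 passed 2-fold higher, and their summed signal was 1125 in the mutant and 479 in wild type. Ctsj gave 283 in the mutant and 1.29 in wild type, and Prl2b1 gave 132 in the mutant and 0.64 in wild type, whereas Peg10 gave 28.1 in the mutant and 26.0 in wild type. What part trophoblast has in the Prg2 value was not tested.

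Defining markers outside the set were read to see what the label rests on. Higher leukocyte genes were the reason for the choice of the set, so their direction is no separate support. For macrophages, Adgre1, which encodes F4/80, gave 155.5 in the mutant and 94.1 in wild type, a log2 ratio of 0.72, and Mertk, a receptor for dying cells, gave 240.1 in the mutant and 255 in wild type. A list of other macrophage genes had 37 on the array, of which 26 were measured. Of these, 19 had ratios above 0 and 7 below, and the median was 0.22. Only 21 of the 26 exceeded the floor on both arrays. Cx3cr1 and Gas6 had log2 ratios of -0.39 and -0.70. Vsig4, Marco and Msr1 were among those under the floor on both arrays. Lgals3, galectin-3, was 2.89-fold higher and Cd83 was 2.21-fold lower, and Cd36, a scavenger receptor, had a log2 ratio of 0.78. For granulocytes the markers were weaker. Csf3r, the receptor for the granulocyte growth factor, Cxcr2 and Mmp8 were under the floor on both arrays. Of 12 measured genes in the list of other granulocyte genes, 8 had ratios above 0, none was 2-fold apart, and the median was 0.06. Only 8 of the 12 exceeded the floor on both arrays. The largest ratios there were those of Mmp9 (25.6 in the mutant, 45.4 in wild type), Pglyrp1 (5.67 in the mutant, 37.6 in wild type, at least 1.56-fold lower), Anxa1 (391 in the mutant, 285 in wild type) and Fcnb (31.1 in the mutant, 10.2 in wild type, at least 1.29-fold higher). So the granulocyte name rests on granule and cytosol proteins and not on surface receptors.

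Leukocyte signalling genes outside the set also lay mostly above 0. Of 23 measured, 17 had ratios above 0, the median was 0.41, and 2 were at least 2-fold higher. Only 14 of the 23 exceeded the floor on both arrays. For the others the direction follows from which array passed it. Higher leukocyte genes were the reason for the choice of the set, so this list is no separate support. Ikzf1, the lymphoid and myeloid factor Ikaros, gave 58.1 in the mutant and 22.9 in wild type, and Sla, an adaptor protein, gave 55.9 in the mutant and 22.2 in wild type. Wild type was under the floor for both, so Ikzf1 was at least 2.42-fold and Sla at least 2.32-fold higher. Fermt3, the kindlin that activates blood cell integrins, gave 434 in the mutant and 239.9 in wild type, a log2 ratio of 0.86, and Plek, pleckstrin, gave 151 in the mutant and 92.5 in wild type, a log2 ratio of 0.71. In the list for antigen presentation 5 of 6 measured genes had ratios above 0. Only 3 of the 6 exceeded the floor on both arrays. Cd74, the invariant chain, gave 39.4 in the mutant and 17.2 in wild type, or at least 1.64-fold higher. H2-Aa and H2-Ab1 were under the floor on both arrays. H2-DMa, Zbtb46 and H2-Eb1 had log2 ratios of at least 0.595, of 0.36 and of at most -0.23.

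**Figure D3:**
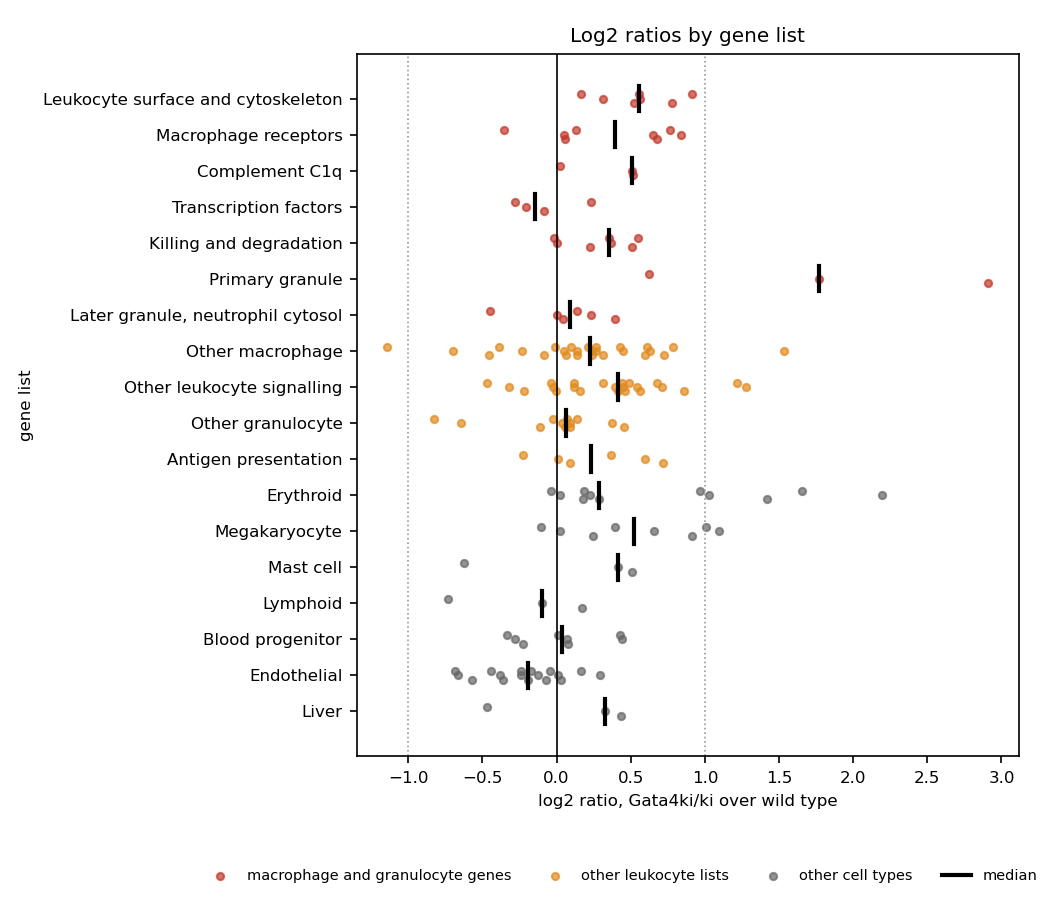
Log2 ratio of mutant over wild type for every measured gene of each list, with a black bar at the list median and dotted lines at 2-fold. The 7 groups of the set are on top, then other leukocyte lists and other cell types. The bar of the row named primary granule, which holds Mpo, Prtn3 and the eosinophil gene Prg2, stands at 1.77. The erythroid bar stands at 0.29 and the endothelial one at -0.19.

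Most measured genes of the erythroid and megakaryocyte lists also had higher signals on the mutant array. Of 11 measured erythroid genes 10 had ratios above 0 and 4 were at least 2-fold higher, with a median of 0.29. Over all measured genes 51.4% had ratios above 0 and 0.846% were at least 2-fold higher. The summed signal of the 11, mostly globin, was 18056 in the mutant and 16621 in wild type. The globin gene Hbb-y, the 1 gene below 0, gave 8977 in the mutant and 9198.5 in wild type. Epor and Gata1 had log2 ratios of 0.23 and 0.19. Hemgn gave 109.8 in the mutant and 20.2 in wild type, or at least 4.57-fold higher. Klf1 gave 77.1 in the mutant and 24.5 in wild type. Slc4a1, an anion exchanger of red cells, gave 129 in the mutant and 48.2 in wild type, and Alas2, of haem synthesis, gave 140.1 in the mutant and 68.6 in wild type. Of 8 measured megakaryocyte genes 7 had ratios above 0, with a median of 0.52 and summed signals of 1254 in the mutant and 820.0 in wild type. Treml1 gave 51.3 in the mutant and 5.78 in wild type, under the floor, so it was at least 2.13-fold higher. The platelet chemokine Ppbp gave 224 in the mutant and 112 in wild type. Itgb3 gave 75.9 in the mutant and 40.3 in wild type, and Pf4 gave 562 in the mutant and 357 in wild type. Itga2b, the 1 gene below 0, gave 72.6 in the mutant and 78.3 in wild type. Gp5 had a log2 ratio of 0.02, and Gp9 was under the floor on both arrays. These lists lay in the same direction as the macrophage genes, and their part in those values was not tested. Liver is the main blood-forming organ of this stage. Its defining genes Alb, Apoa1 and Ttr were under the floor on both arrays, and 3 genes of the liver list were measured, with a median log2 ratio of 0.33. Afp gave 297 in the mutant and 412 in wild type, and Hnf4a gave 78.8 in the mutant and 58.3 in wild type. Their log2 ratios were -0.47 and 0.43. Apoa2 gave 30.1 in the mutant and 14.2 in wild type, under the floor, so it was at least 1.25-fold higher. The list median is this bound.

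The size of these ratios was set against the array's own scatter. For measured genes with a mean signal up to 50, the 5th to 95th percentiles of the log2 ratio were -0.70 and 0.81. They narrowed to -0.66 and 0.61 from 50 to 100, to -0.39 and 0.42 from 100 to 400, and to -0.24 and 0.26 above 400. Of the 38 genes, 14 lay above the 95th percentile of their own signal range. They were Folr2, which is a bound, in the lowest range, and Cd52, Mpo, Prg2, Prtn3 and Ptprc in the next. In the third range they were C1qb, Cd53, Coro1a, Lcp1, Mrc1 and Ms4a7, and in the highest Csf1r and S100a9. Maf alone lay below the 5th percentile of its range. An excess above the 95th percentile follows from the choice of genes, made because leukocyte genes were higher on this mutant array. The scatter combines real differences with probe noise and holds no spread between embryos.

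**Figure D4:**
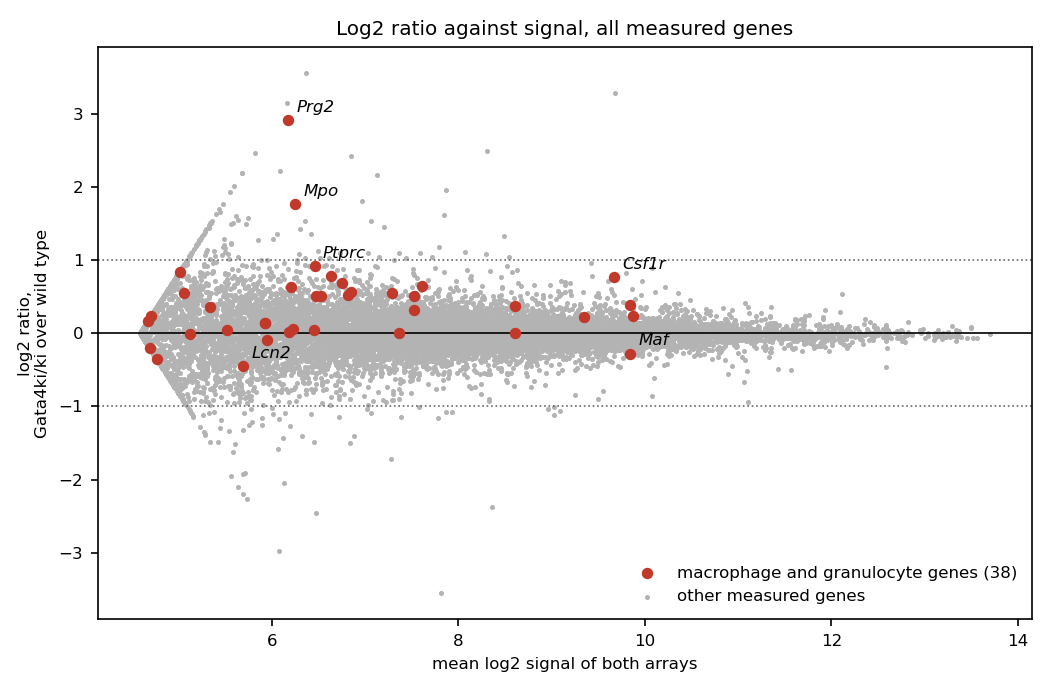
Log2 ratio of mutant over wild type (vertical) against mean log2 signal of both arrays (horizontal) for 12300 measured genes in grey and the 38 genes of the set in red. The red points lie mostly above 0, with Prg2 and Mpo over the dotted 2-fold line, and the slanted edges on the left come from the floor.

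Probe sets of 1 gene gave a further reading of the same RNA. Of 8 genes with more than 1 measured probe set, 5 had every ratio above 0 (Coro1a, Lcp1, Csf1r, C1qb and Lyz1) and 2 had every ratio below 0 (Maf and Cybb). Laptm5 had both signs, with log2 ratios of 0.31, 0.61 and at most -0.05. The last is a bound, with 4.12 in the mutant and 24.9 in wild type. Its other probe sets were under the floor on both arrays. These probe sets share a sample, so their likeness says nothing of the spread between embryos.

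For the arrays as a whole, the medians were 24.0 in the mutant and 24.1 in wild type, and 22534 probe sets exceeded the floor in the mutant and 22566 in wild type. The ratio of 3′ to 5′ signal, a sign of RNA integrity, was 2.47 in the mutant and 2.16 in wild type for beta-actin, and 1.10 in the mutant and 0.90 in wild type for Gapdh. The gonad gene Wt1 gave 1475 in the mutant and 1461 in wild type and Pax8, a gene of the mesonephric ducts, gave 83.0 in the mutant and 92.5 in wild type, so both parts of the complex gave signal. Gata4 gave 286 in the mutant and 241 in wild type, and its measured probe sets had log2 ratios of 0.25 and -0.51. The allele alters the protein, so this signal does not check the labels.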

How the data were processed

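Total RNA was copied into biotin-labelled cRNA and hybridised to 1 oligonucleotide array per group, per the labels' protocols. The authors' deposited values are linear signal intensities per probe set for which the submitters' processing notes name MAS5. For its version, detection calls and filters, the sources used here give nothing. Trimmed of 2% of probe sets at each end, the arrays had the same mean, 150.0, so the intensities were already scaled. They were used as deposited.

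Of the probe sets, 34945 had 1 gene symbol in the platform's annotation, 932 had several, 9160 were not listed and 64 were controls; only the first took part. All 43 genes of the set found by symbol matched the RefSeq gene table of GRCm38.p6 by gene number. Signals were floored at the 50th percentile and log2-transformed in Python 3.11.15 with pandas 2.3.3. The code was tested on simulated data. With 1 array per group there is no p-value, and the number of arrays limits the precision. Every gene of the set is reported, and of other lists up to 4 genes with the largest ratios. Others, the trophoblast genes included, were named after their values were seen. The genes and lists were chosen with earlier results of these data known. Alternatives changed the floor, probe set choice, scaling and threshold.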

Additional observations from a re-analysis of the deposited data

How the results depend on the processing

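In 10 alternative settings the number of genes at least 2-fold higher was 2 or 3, except at a 1.5-fold threshold, where it was 9. The third, with the floor at the 40th percentile, was Folr2 at 1.32. That setting also gave 1 gene 2-fold lower, Spi1 at -1.01, where all other settings gave 0. The median of the genes outside the granule groups was 0.51 with the floor at the 40th and also at the 60th percentile, against 0.36. At the 40th only the genes given as bounds took other ratios. At the 60th dim genes such as Spi1, Cd14 and Cybb were no longer measured and the others kept their ratios. The granule median was 0.39 without suffixed probe sets, against 0.23. S100a8 and Lcn2 were not measured in that setting and the other granule ratios did not change. Prg2 ranged from 2.03 to 2.925 and Mpo from 1.33 to 1.78. The median of all measured genes of the set ranged from 0.30 to 0.39. Of the 38 log2 ratios 31 were above 0 in every setting that measured them and 6 below, and Ngp alone took both signs, from -0.00038 to 0.0088. Counts over all genes moved more, from 104 higher and 66 lower to 210 and 136 with the lower floor, 41 and 33 with the higher floor, 61 and 40 with a pseudocount, 436 and 382 at 1.5-fold, and 63 and 49 for genes above the floor on both arrays, a setting chosen after seeing the data. No paired analysis was possible because each group holds 1 array. Values near the floor, such as those of Spi1, Cebpa, Itgb2 and Cd14, are limited by background.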

Other observations

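Growth factors and rarer blood cells complete the description. Csf1, the ligand of the macrophage receptor, gave 85.0 in the mutant and 66.1 in wild type, a log2 ratio of 0.36, but its measured probe sets ran from -0.57 to 0.36, and the second ligand, Il34, was under the floor on both arrays. Kitl, the stem cell factor, gave 2387 in the mutant and 2844 in wild type, and all of its 4 measured probe sets were below 0. Cxcl12, a chemokine that holds blood progenitors in place, gave 695 in the mutant and 759.6 in wild type.

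Mast cell and lymphoid genes were mostly unmeasured. Mcpt4, Cma1, Ms4a2 and Fcer1a were under the floor on both arrays, and Cpa3, the mast cell carboxypeptidase, gave 27.6 in the mutant and 42.6 in wild type. The other measured genes of that list, which cells other than mast cells also express, were higher in the mutant. Kit gave 187 in the mutant and 131 in wild type, but its measured probe sets ran from -0.10 to 0.51. Gata2 gave 812 in the mutant and 609.5 in wild type. The median log2 ratio of these 3 genes was 0.41. The lymphoid genes Cd3e, Cd79a and Rag1 were also under the floor on both arrays. Among 8 measured blood progenitor genes 5 had ratios above 0, with a median of 0.04 and none 2-fold apart. Myb gave 82.1 in the mutant and 60.5 in wild type, and Runx1 gave 59.2 in the mutant and 44.1 in wild type. Both genes had measured probe sets of both signs, with log2 ratios from -0.12 to 0.44 for Myb and from -0.43 to 0.43 for Runx1. Cd34, which endothelium also expresses, gave 273 in the mutant and 343 in wild type.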
